A study of Mus musculus with 10 samples.

Results

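Red cells depend on a membrane skeleton, on a supply of iron and on heme, and 32 genes of these functions were compared between mouse haematopoietic stem cells (HSCs) with doxycycline-driven Sox17 and those of wild-type littermates. The genes were taken from a fixed list of names. A gene was measured where a probe set of the array carried its symbol and no other, and where several did, the one whose average across the 10 arrays was highest was used. That gave 30 of the 32 genes. Epb41, a skeleton protein, and Ahsp, the chaperone of free alpha-globin, had no such probe set in the annotation used here. The 30 are a small part of the 19938 genes with a one-gene probe set.

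Each group had 5 arrays (Affymetrix Mouse Gene ST 1.0), each from 10000 HSCs double-sorted from bone marrow of 8-week-old mice as CD150+ CD48- lineage- Sca1+ cKit+. The transgenic mice carried (tetO)7CMVSox17-IRES-NucEGFP, whose tet-responsive CMV minimal promoter answers to the activator rtTA*M2. That activator came from the ROSA26 locus, which is active in most tissues, so induction was not limited to HSCs. The controls were wild-type littermates, and both groups drank doxycycline at 2 mg/ml for 5 days. Nothing links an aliquot to one mouse, and p-values therefore reflect only how far these samples scatter, part of which may be technical.

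In the red cell lineage, spectrin, ankyrin, protein 4.2, adducin and tropomodulin form a network under the membrane, anchored to transmembrane proteins such as the anion exchanger band 3. Erythroblasts import transferrin-bound iron through the transferrin receptor and pass it into mitochondria, where heme synthesis begins and ends. Most of these genes become abundant during terminal erythroid differentiation, while HSCs are multipotent cells that have not entered it. GATA and KLF factors drive many of them in erythroid cells.

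Promoter windows from RefSeq (GRCm38.p6, 250 bases before to 50 after a start site) were at hand for 23 of the measured genes, 28 windows in all. The GATA core with its flanks (GATA with A or T before it and A or G after it, on either strand) occurred in 14 of the 28 windows (50%), against 29.8% of the 32851 windows of the whole table. The CACCC box (CACACCC, either strand) was in 2 of 28 windows (7.14%, against 7.95% of all), and the SOX core (ACAAT, either strand) in 9 of 28 (32.1%, against 31.0%). The loop letters of an iron-responsive element (CAGTGN, transcribed strand, after the start) were in 2 of 28, of Alad and Trim10 (7.14%, against 7.08%). Only the 50 bases after the start were searched for them, not the rest of the transcript. These are letter matches only. Below are the 250 bases upstream of the start, 5′ to 3′ in the gene's direction with GATA matches in capitals. They are given for Hemgn and Icam4, which were lower on the transgenic arrays at an unadjusted p under 0.05 (limma). A pair in heme synthesis, Alas2 and Cpox, is given too. Neither of the heme pair had an unadjusted p under 0.05 (limma). All 4 hold a match, and those of Cpox overlap by 1 base. The windows of Aqp1, Tfrc, Alad, Alas1, Ppox and Urod, not shown, hold none.
Hemgn (chr4:46404184-46404433, minus strand): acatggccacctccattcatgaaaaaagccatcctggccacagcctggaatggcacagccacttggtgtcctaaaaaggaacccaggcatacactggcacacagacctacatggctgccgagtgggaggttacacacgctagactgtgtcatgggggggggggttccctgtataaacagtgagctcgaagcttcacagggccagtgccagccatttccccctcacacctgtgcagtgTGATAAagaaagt
Icam4 (chr9:21029182-21029431, plus strand): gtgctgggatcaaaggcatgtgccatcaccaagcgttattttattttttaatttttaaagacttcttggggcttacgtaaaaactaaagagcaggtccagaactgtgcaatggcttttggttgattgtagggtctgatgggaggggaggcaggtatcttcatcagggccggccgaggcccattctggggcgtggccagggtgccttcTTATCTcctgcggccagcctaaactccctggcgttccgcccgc
Alas2 (chrX:150547167-150547416, plus strand): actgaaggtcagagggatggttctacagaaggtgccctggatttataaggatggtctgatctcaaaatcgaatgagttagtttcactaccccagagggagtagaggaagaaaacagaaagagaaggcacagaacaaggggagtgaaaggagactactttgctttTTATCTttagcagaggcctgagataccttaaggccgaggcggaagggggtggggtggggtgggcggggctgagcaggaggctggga
Cpox (chr16:58669958-58670207, plus strand): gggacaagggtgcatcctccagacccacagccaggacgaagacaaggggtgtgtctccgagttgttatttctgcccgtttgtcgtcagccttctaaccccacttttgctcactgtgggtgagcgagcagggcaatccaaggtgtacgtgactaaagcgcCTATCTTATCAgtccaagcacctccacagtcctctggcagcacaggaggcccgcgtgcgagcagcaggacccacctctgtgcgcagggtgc
Of the 6 genes with an unadjusted p under 0.05 and a window, 3 held a GATA match, against 14 of all 23 measured genes with a window.

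The values are log2 expression as deposited, from robust multi-array averaging (RMA), so that 1 unit is a doubling. Differences are transgenic minus wild type. A gene passed if its limma p, adjusted by Benjamini-Hochberg over all 23410 tested probe sets, was under 0.05. The arrays themselves fell into a pair of sets that did not follow the groups: set A held transgenic arrays 1, 2 and 3 and wild-type arrays 1 and 2, and set B held transgenic arrays 4 and 5 and wild-type arrays 3, 4 and 5. The sets were defined from the values, by the sign of the first principal component after group means were taken out, which carried 40.1% of the remaining variance. The labels name no batch, and the nature of the sets is unknown. Since the sets come from these same values, using them as a block takes out residual scatter by construction. Below, p-values with the set as a block are therefore a description and not independent support. Transgenic array 4 alone read as male (Eif2s3y at 9.23, against 2.57 to 2.87 on the other 9 arrays). The Sox17 probe set averaged 4.37 ± 0.13 in transgenic and 4.21 ± 0.13 in wild-type HSCs (SD, n = 5 each), a difference that did not pass (limma adjusted p = 0.855). Whether this probe set covers the sequence in the transgene is not given in the files used here, so it does not check the labels.

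None of the 30 measured genes passed the threshold (limma, 0 of 30), against 0.141% of all tested probe sets (0.0214% lower and 0.120% higher). With the array set as a block 0 of 30 passed too, against 0.0769% of all lower and 0.312% higher. The differences were nevertheless mostly negative. Of the 30 genes 23 were lower on the transgenic arrays, with a median difference of -0.10, against 53.8% of all tested probe sets with a negative difference and a median of -0.01. An unadjusted p under 0.05 was reached by 7 genes, Icam4, Aqp1, Alad, Tfrc, Car2, Hemgn and Blvrb, all of them lower (2.90% of all tested probe sets were lower at that level), and by 0 genes that were higher (3.70% of all; 6.59% in either direction). The lowest adjusted p among them was 0.357, for Car2. Of the 30 genes, 15 had a mean over all arrays under the median of the tested probe sets (5.81). A small difference on such a probe set does not show that expression is unchanged. In bulk samples fewer cells of a type and less RNA per cell cannot be told apart.

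**Figure D1:**
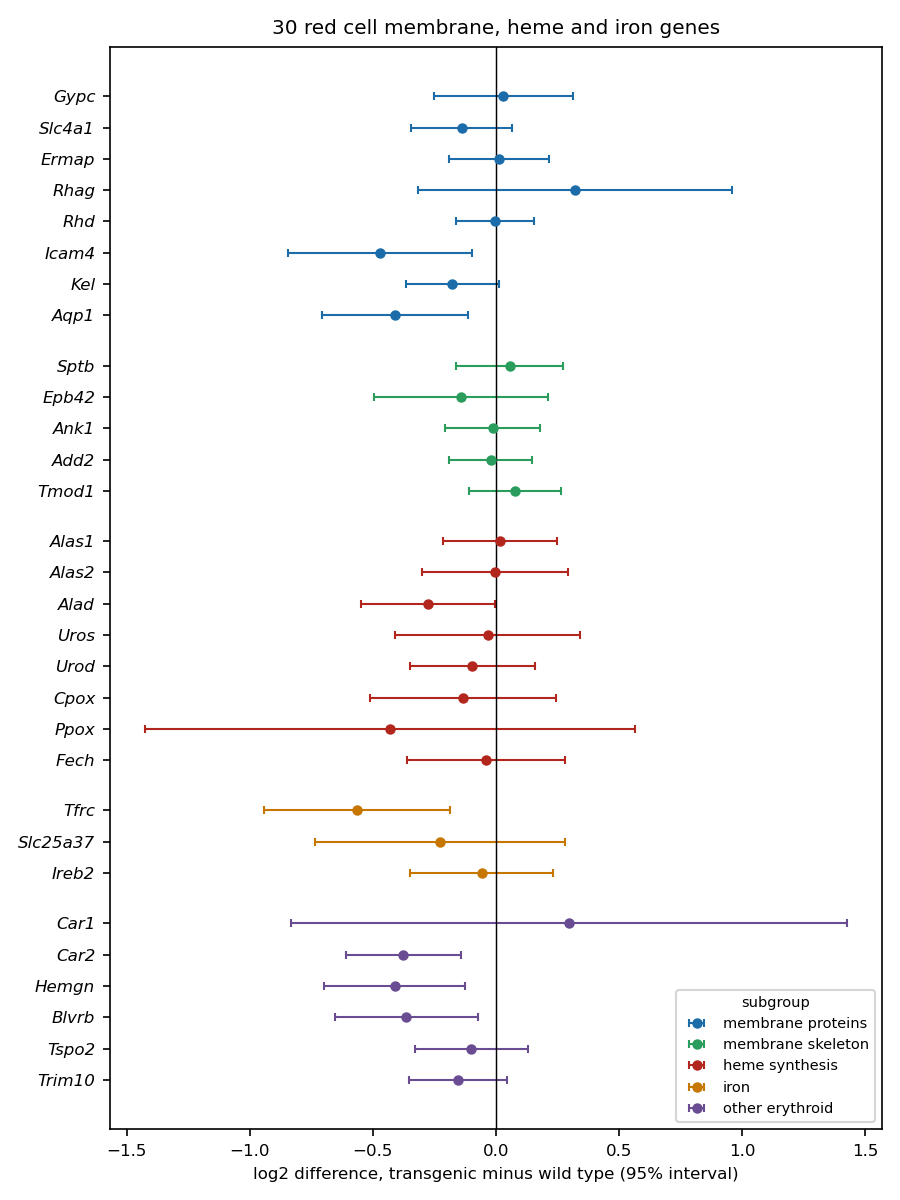
Log2 difference of each of the 30 genes, transgenic minus wild type (x axis), with the 95% interval of the limma fit, genes down the page by subgroup (5 transgenic and 5 wild-type arrays). The largest negative difference is that of Tfrc at -0.57, and the widest intervals are those of Car1 and Ppox.

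Among the 8 membrane proteins and blood group antigens, 5 differences were negative and 3 positive, from -0.47 to 0.32, and 0 passed (limma, 2 with an unadjusted p under 0.05). Icam4, the Landsteiner-Wiener blood group adhesion molecule of erythroid cells, read 7.05, 6.32, 6.37, 6.74 and 6.80 on the transgenic arrays, against 6.81, 7.37, 7.45, 6.88 and 7.13 on the wild-type arrays. Only transgenic array 1 lay within the wild-type range. The difference was -0.47 (SE 0.17, adjusted p = 0.557), which places the transgenic mean at 72.2% of the wild-type level with a 95% interval of 55.7% to 93.5%.

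Aqp1, the water channel of the red cell membrane, which endothelium also carries, read 5.66, 5.53, 5.48, 5.36 and 5.18 on the transgenic arrays, against 6.02, 5.78, 5.45, 6.13 and 5.88 on the wild-type arrays. Wild-type array 3 was the one that reached into the transgenic range. The difference was -0.41 (SE 0.13, adjusted p = 0.475).

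The other membrane genes were closer between the groups. Slc4a1, which encodes band 3, averaged 5.65 ± 0.14 in transgenic and 5.79 ± 0.13 in wild-type HSCs (SD, n = 5 each), a difference of -0.14 with an interval of -0.35 to 0.07. Gypc, the glycophorin that ties the skeleton to the membrane, read 7.41, 7.04, 6.85, 7.05 and 6.67 on the transgenic arrays, against 6.86, 7.17, 6.99, 6.96 and 6.88 on the wild-type arrays. The transgenic arrays spread more widely than the wild-type ones, and the difference was 0.03 (interval -0.25 to 0.31).

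Rhag, the Rh-associated ammonium channel protein, read 4.11, 3.50, 4.76, 4.76 and 5.32 on the transgenic arrays, against 4.38, 3.97, 4.21, 3.83 and 4.47 on the wild-type arrays. Its difference of 0.32 (SE 0.29, adjusted p = 0.943) was the highest of the 30, on a probe set whose mean over all arrays, 4.33, lies under the lower quartile of the tested probe sets (4.40). The transgenic arrays covered the wild-type range and went beyond it on both sides; within set B the groups did not overlap (difference 0.87), while within set A it was -0.05. Its partner Rhd, the Rh antigen, differed by -0.00 (interval -0.16 to 0.16), and Ermap, the Scianna blood group protein, by 0.01 (interval -0.19 to 0.21). Kel, the Kell blood group peptidase, had a mean over all arrays of 3.65, also under that quartile, and differed by -0.18 (SE 0.09).

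The membrane skeleton genes were close between the groups. Of 5 measured, 3 were negative and 2 positive, from -0.14 to 0.08, and 0 passed or had an unadjusted p under 0.05 (limma). Beta-spectrin, Sptb, averaged 5.13 ± 0.14 in transgenic and 5.08 ± 0.16 in wild-type HSCs, and Ank1, the ankyrin that links spectrin to band 3, 5.11 ± 0.09 in transgenic and 5.13 ± 0.15 in wild-type HSCs (SD, n = 5 each). The interval of the difference was -0.16 to 0.27 for Sptb and -0.21 to 0.18 for Ank1. Add2, the beta-adducin that caps and bundles actin, differed by -0.02 (interval -0.19 to 0.15). Epb42, protein 4.2, had the lowest difference of the subgroup, and it read 4.81, 4.86, 4.52, 5.15 and 5.05 on the transgenic arrays, against 4.93, 4.82, 5.33, 4.67 and 5.36 on the wild-type arrays. The groups overlapped broadly (difference -0.14, interval -0.50 to 0.21). The means over all arrays of Sptb, Ank1, Add2 and Epb42 were 4.59 to 5.12, under the median of the tested probe sets (5.81).

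Tmod1, which caps the pointed ends of the short actin filaments, was the one gene with a second one-gene probe set, and its probe sets differed in direction. The brighter one read 6.18, 6.27, 6.10, 6.27 and 6.32 on the transgenic arrays, against 5.97, 6.19, 6.07, 6.20 and 6.32 on the wild-type arrays, which overlapped throughout (difference 0.08, adjusted p = 0.953). The other read 5.27, 5.09, 5.27, 5.27 and 5.08 on the transgenic arrays, against 5.88, 6.09, 5.51, 6.15 and 5.55 on the wild-type arrays. There all 5 transgenic arrays lay below all wild-type arrays, with a difference of -0.64 (SE 0.13, adjusted p = 0.132); this probe set was singled out after its values were seen. The parts of the transcript that each probe set covers are not given in the files used here.

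**Figure D2:**
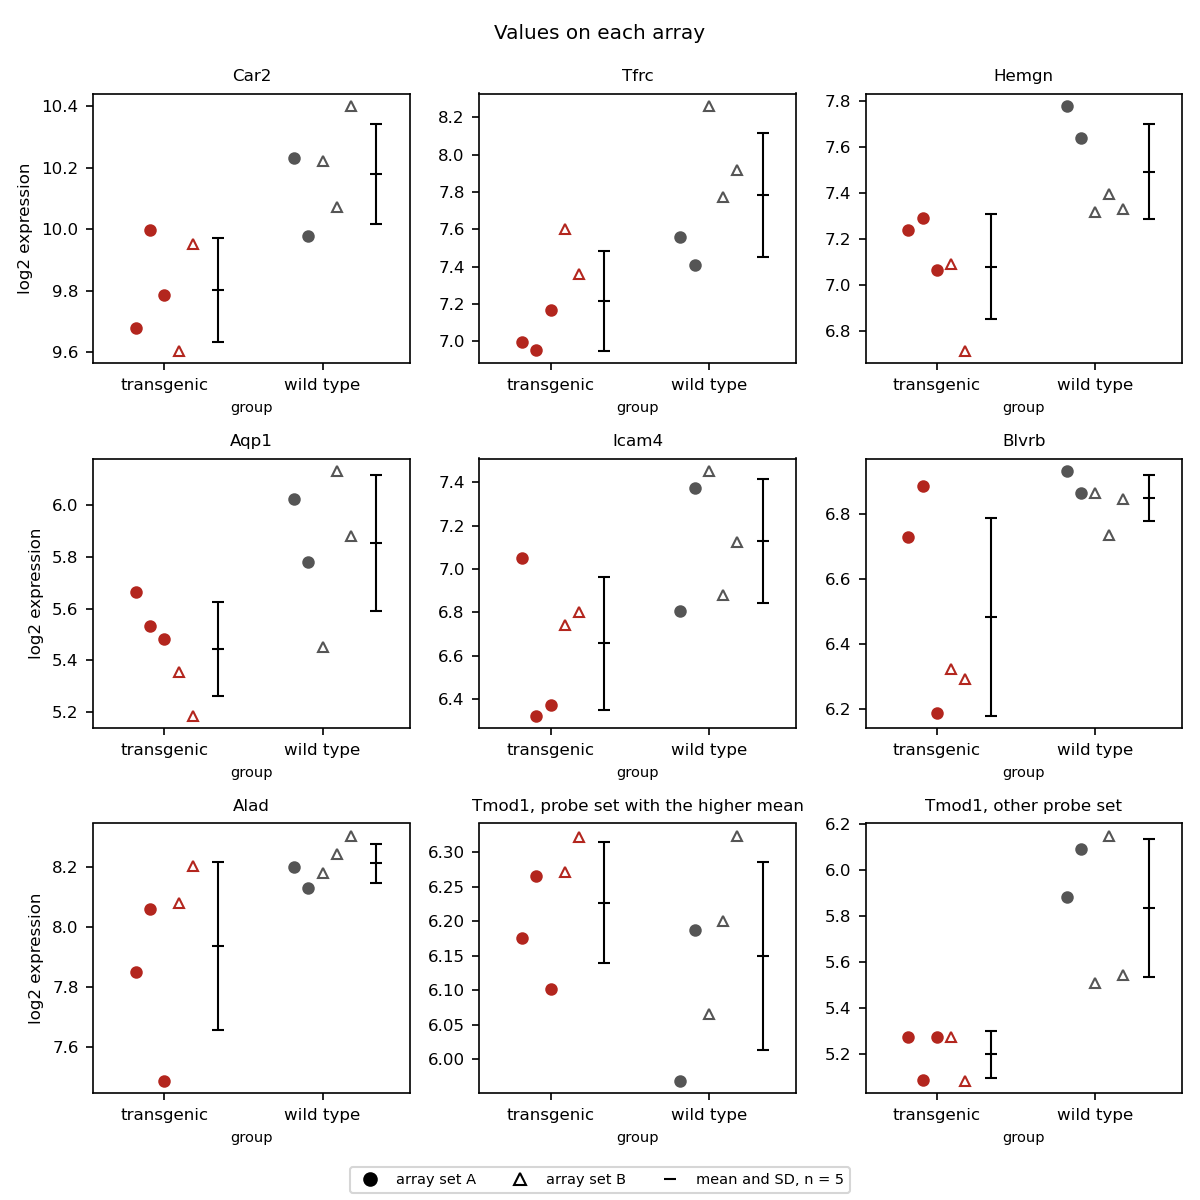
Log2 expression on each array (y axis; each panel has its own range) for the 7 genes with an unadjusted p under 0.05 and for both probe sets of Tmod1, transgenic left and wild type right. Filled circles are set A, open triangles set B, and bars the mean and SD of 5 arrays; the groups are apart without overlap for Hemgn and for the second Tmod1 probe set.

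Among the 3 iron genes all differences were negative, from -0.57 to -0.06, and 0 passed (limma, 1 with an unadjusted p under 0.05). Tfrc, the transferrin receptor through which cells take up iron and which dividing cells also express, read 7.00, 6.95, 7.17, 7.60 and 7.36 on the transgenic arrays, against 7.56, 7.41, 8.26, 7.77 and 7.92 on the wild-type arrays. The groups overlapped only through transgenic array 4 at 7.60, which lies above wild-type arrays 1 and 2. The difference was -0.57 (SE 0.17, adjusted p = 0.415), the largest in size of the 30 genes, with the transgenic mean at 67.6% of the wild-type level (interval 52.0% to 87.8%).

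Within each array set Tfrc did not overlap between the groups, with -0.44 in set A and -0.50 in set B. With the set as a block, the difference was -0.47 (SE 0.11, adjusted p = 0.116). Without transgenic array 4, the male one, it was -0.66 (adjusted p = 0.334). Slc25a37, mitoferrin 1, which carries iron into mitochondria, differed by -0.23 (interval -0.73 to 0.28) and by -0.10 with the set as a block. Ireb2, an iron-sensing protein that binds iron-responsive elements of messages such as that of Tfrc, read 8.09, 8.06, 8.30, 8.67 and 8.52 on the transgenic arrays, against 8.45, 8.27, 8.65, 8.24 and 8.33 on the wild-type arrays. The groups overlapped almost fully (difference -0.06, interval -0.35 to 0.23).

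Of the 8 enzymes of heme synthesis 7 had negative differences, with a median of -0.07 and a range of -0.43 to 0.01, and 0 passed (limma, 1 with an unadjusted p under 0.05). The 2 forms of the first enzyme were level. Alas1, the housekeeping aminolevulinate synthase, differed by 0.01 (interval -0.22 to 0.25). Alas2, the erythroid form, read 5.31, 5.29, 5.48, 5.19 and 5.27 on the transgenic arrays, against 5.78, 5.38, 5.24, 5.17 and 4.98 on the wild-type arrays. It varied more among the wild-type arrays than between the groups (difference -0.00, interval -0.30 to 0.29).

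Alad, which joins 2 aminolevulinate molecules into porphobilinogen, was the enzyme with an unadjusted p under 0.05. It read 7.85, 8.06, 7.49, 8.08 and 8.21 on the transgenic arrays, against 8.20, 8.13, 8.18, 8.25 and 8.31 on the wild-type arrays. Of the transgenic arrays 4 lay below all wild-type arrays, and array 3 stood lowest. The difference was -0.28 (SE 0.12, adjusted p = 0.754), with -0.37 in set A and -0.10 in set B. Without transgenic array 3 the group difference of Alad was -0.16.

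The later enzymes were closer or less certain. The difference was -0.03 for Uros (interval -0.41 to 0.34), which closes the porphyrin ring, and -0.10 for Urod (interval -0.35 to 0.16), which removes carboxyl groups from it. Cpox, the coproporphyrinogen oxidase, differed by -0.14 (interval -0.51 to 0.24), and Fech, the ferrochelatase that inserts iron, by -0.04 (interval -0.36 to 0.28). Ppox, the protoporphyrinogen oxidase, read 6.58, 6.83, 6.97, 7.82 and 8.31 on the transgenic arrays, against 6.82, 6.61, 8.42, 8.43 and 8.37 on the wild-type arrays. Its values followed the array sets: set A arrays read 6.58 to 6.97 and set B arrays 7.82 to 8.43, whichever the group. The difference of -0.43 (SE 0.45) between the groups, which hold unequal numbers of each set, was -0.13 (SE 0.13) with the set as a block.

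Slc25a37 was also parted by set, with 6.93 to 7.47 in set A and 7.66 to 8.18 in set B. Alas2 lay the other way, with 5.29 to 5.78 in set A and 4.98 to 5.27 in set B. These 3 were the genes of the 30 whose sets did not overlap, and since the sets come from the same arrays this is a description.

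**Figure D3:**
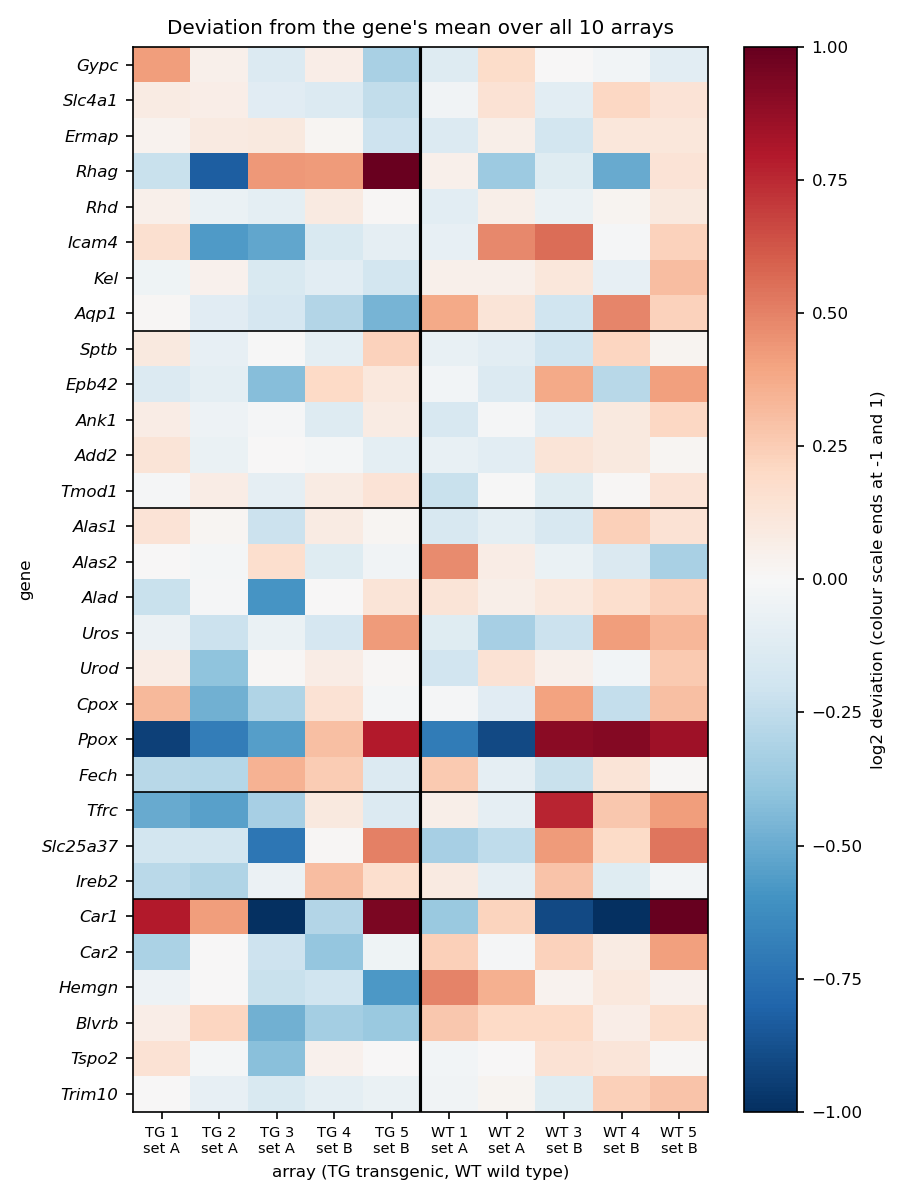
Deviation of each gene (rows, by subgroup) from its mean over all 10 arrays in log2 units (colour), with the 5 transgenic arrays left of the 5 wild-type arrays and the set under each array. Ppox follows the set, Car1 varies from array to array, and Tfrc, Hemgn and Car2 are mostly blue on the left and red on the right.

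Of the 6 other erythroid proteins 5 had negative differences, with a median of -0.26, and 0 passed (limma, 3 with an unadjusted p under 0.05). Car2, a carbonic anhydrase of red cells that HSCs and other cells also express, read 9.68, 10.00, 9.79, 9.60 and 9.95 on the transgenic arrays, against 10.23, 9.98, 10.22, 10.07 and 10.40 on the wild-type arrays. Transgenic array 2 and wild-type array 2 were the only ones to cross. The difference was -0.38 (SE 0.11, adjusted p = 0.357), or 77.0% of the wild-type level with an interval of 65.5% to 90.6%.

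Hemgn, hemogen, a nuclear protein of haematopoietic and erythroid cells, read 7.24, 7.29, 7.07, 7.09 and 6.71 on the transgenic arrays, against 7.78, 7.64, 7.32, 7.40 and 7.33 on the wild-type arrays. It was the 1 gene of the 30 whose groups did not overlap, against 0.594% of all tested probe sets with the transgenic arrays below, and no gene had them all above (0 of 30, against 0.876%). The difference was -0.41 (SE 0.13, adjusted p = 0.429). With the set as a block it was -0.48 (SE 0.09, adjusted p = 0.0620), the lowest adjusted p that any of the 7 genes reached under the settings tried.

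Blvrb, a biliverdin and flavin reductase abundant in red cells, read 6.73, 6.88, 6.19, 6.32 and 6.29 on the transgenic arrays, against 6.93, 6.86, 6.86, 6.73 and 6.84 on the wild-type arrays. Transgenic arrays 3, 4 and 5 stood well below the wild-type arrays, which varied little, while array 1 was just below all of them and array 2 among them. The difference was -0.36 (SE 0.13, adjusted p = 0.558). Car1, the other red cell carbonic anhydrase, ranged from 4.25 to 6.31 with a median of 5.79 on the transgenic arrays, against 4.23 to 6.82 with a median of 5.00 on the wild-type arrays. It spread most of all 30 genes, and its difference of 0.30 had an interval of -0.83 to 1.42. Tspo2, an erythroid relative of the translocator protein, differed by -0.10 (interval -0.33 to 0.13) and Trim10, a ring finger protein of erythroid cells, by -0.16 (interval -0.36 to 0.05).

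**Figure D4:**
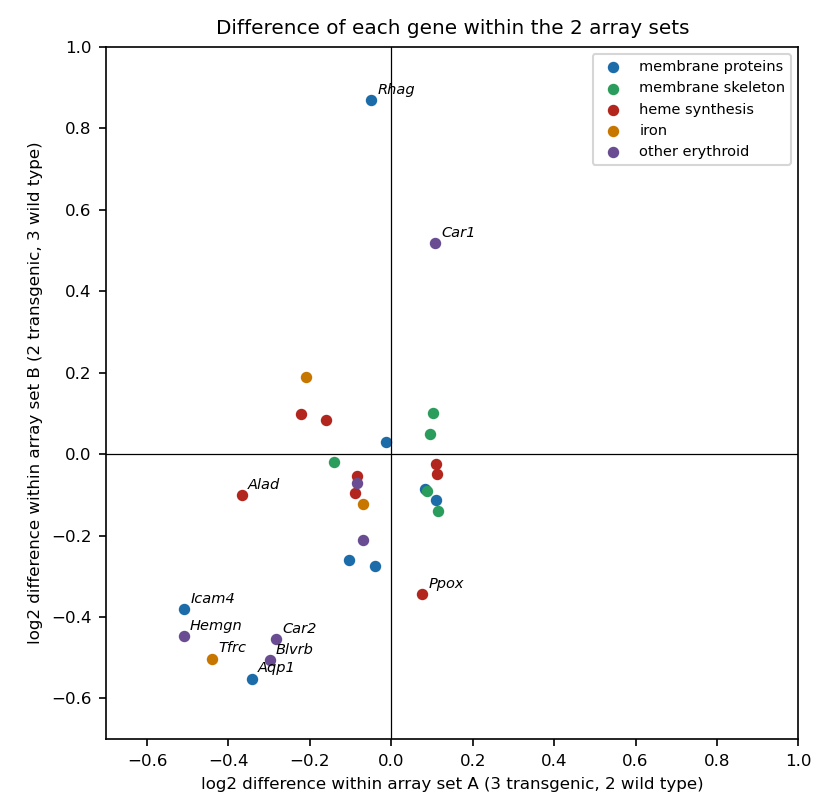
Difference of each gene, transgenic minus wild type in log2 units, within set A (x axis, 3 against 2 arrays) and within set B (y axis, 2 against 3 arrays), coloured by subgroup. The 7 genes with an unadjusted p under 0.05 lie in the lower left, and Rhag, at -0.05 in set A and 0.87 in set B, differs most between the sets.

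Within the sets, negative differences numbered 20 of the 30 in set A, 22 in set B and 15 in both sets at once, against 30.2% of all tested probe sets that were negative in both. The 15 include all 7 genes with an unadjusted p under 0.05, whose differences lay between -0.51 and -0.28 in set A and between -0.55 and -0.10 in set B. Kel, Aqp1, Tfrc and Hemgn had all transgenic below all wild-type arrays in both sets, 4 of 30 (all tested probe sets, 1.70%). The effect was not shown to differ between the sets for any gene of the 30: an interaction of group and set passed for 0 of them (limma; 0 had an unadjusted p under 0.05, the lowest being 0.0821 for Rhag).

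Further genes of the same functions, taken from a list of names, were examined beside them. Of 23 other red cell membrane and skeleton genes 8 were negative and 15 positive (median 0.03), and 0 passed (limma). An unadjusted p under 0.05 was reached by 2 lower and 3 higher genes (2.90% and 3.70% of all tested probe sets). All transgenic lay below all wild-type arrays for 1 of the 23 (0.594% of all). Add3, the gamma-adducin found in many cell types, averaged 6.51 ± 0.12 in transgenic and 7.08 ± 0.16 in wild-type HSCs (SD, n = 5 each). The difference of Add3 was -0.57 without overlap (limma adjusted p = 0.0527). It was under the threshold only in some settings, such as the set as a block (limma adjusted p = 0.0154), where the sets come from these same values. The glucose transporter Slc2a1 differed by 0.55 (adjusted p = 0.383), the calcium-activated potassium channel Kcnn4 by -0.21 (adjusted p = 0.586) and Tmod3, the widely expressed tropomodulin, by 0.26 (adjusted p = 0.588).

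Of 32 other heme and iron genes 16 were negative and 16 positive (median 0.02), and 0 passed (limma). An unadjusted p under 0.05 was reached by 2 lower genes and 1 higher gene (2.90% and 3.70% of all tested probe sets). All transgenic lay below all wild-type arrays for 1 of the 32 (0.594% of all). Slc48a1, which moves heme out of endosomes, averaged 7.39 ± 0.18 in transgenic and 7.88 ± 0.13 in wild-type HSCs (SD, n = 5 each; difference -0.48, adjusted p = 0.137) without overlap. Transferrin, Trf, differed by 0.29 (adjusted p = 0.411), the heme-degrading oxygenase Hmox1 by -0.49 (adjusted p = 0.743) and Slc25a38, a mitochondrial glycine carrier of heme synthesis, by -0.35 (adjusted p = 0.764). The ferritin subunits Fth1 and Ftl1, which store iron, differed by 0.08 and -0.06.

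Of 12 erythroid regulators 11 were negative (median -0.26). Gfi1b, a transcriptional repressor of erythroid and megakaryocytic cells, fell by 1.05 on the log2 scale (SE 0.15, limma adjusted p = 0.0266) as the 1 that passed (0.0214% of all tested probe sets passed lower). An unadjusted p under 0.05 was reached by 7, all lower (2.90% of all). All transgenic lay below all wild-type arrays for 3 of the 12 (0.594% of all). The call on Gfi1b was lost without transgenic array 3 or 4 or any 1 of the 5 wild-type arrays (adjusted p up to 0.0854), after quantile scaling (0.0519), over all probe sets (0.0749), with a floor at the 20th percentile (0.106) and within set A (0.346) or set B (0.217) alone. The erythropoietin receptor Epor differed by -0.46 (adjusted p = 0.376) and the haematopoietic factor Tal1 by -0.22 (adjusted p = 0.532), both without overlap. The erythroid factor Klf1 differed by -0.41 (adjusted p = 0.557) and the bridging protein Lmo2 by -0.30 (adjusted p = 0.601). On each array the mean of the 12 was 7.70 to 7.96 on the transgenic arrays, against 8.12 to 8.22 on the wild-type arrays.

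Lists of other cell types and functions gave the following values. The mean of 5 megakaryocyte and platelet genes was 5.93 to 6.38 on the transgenic arrays, against 6.92 to 7.58 on the wild-type arrays, and the platelet chemokine gene Pf4 fell by 2.53 (adjusted p = 0.0112), a call lost with a floor at the 20th percentile (adjusted p = 0.0793) and within set A (0.0633) or set B (0.0716) alone. The mean of 12 DNA replication genes was 7.38 to 7.66 on the transgenic arrays, against 7.80 to 8.24 on the wild-type arrays. Limma called 0 of the 12, and 9 were lower at an unadjusted p under 0.05 (2.90% of all tested probe sets). The 2 probe sets shared by the adult beta-globin genes went the other way, by 2.22 and 2.04 (limma adjusted p = 0.0103 and 0.0112). Both calls were lost within set A (adjusted p = 0.12 and 0.17) and within set B (0.13 and 0.19) alone. The first probe set read 10.97 to 11.74 on the transgenic arrays, against 8.11 to 9.67 on the wild-type arrays. Alpha-globin genes also share 2 probe sets, at -0.38 and -0.41 with overlap, and 3 embryonic globin genes by 0.05 to 0.09. The means of 6 granulocyte and monocyte genes were 5.67 to 7.42 on the transgenic arrays, with array 5 highest, against 5.41 to 5.91 on the wild-type arrays. All 6 differences were positive, and 0 passed (limma). Only Lyz2, 1 of the 6, had all transgenic above all wild-type arrays (0.876% of all tested probe sets), at 8.57 to 9.08 against 8.09 to 8.48. The means of 4 B cell, 5 T and NK cell and 4 mast cell and basophil genes overlapped between the groups, with members on opposite sides. There 0 genes passed the threshold (limma), and 3 were under 0.05 before adjustment (6.59% of all tested probe sets). Nkg7, of cytotoxic lymphocytes, differed by -1.17 without overlap (adjusted p = 0.218), Thy1, of T cells and other cells, by 1.20 (adjusted p = 0.224), and Vpreb1, of B cell precursors, by -0.83 (adjusted p = 0.466). The stem cell receptor Kit, one of the sort markers, read 9.22 to 9.74 on the transgenic arrays, against 9.68 to 10.08 on the wild-type arrays, all above the upper quartile of the tested probe sets (7.31). Kit and Procr differed by -0.47 and 1.08 (limma adjusted p = 0.248 and 0.247), and Mecom and Fgd5 by 0.33 and 0.27 (0.383 and 0.54). Of 7 stem cell genes 0 passed, and 1 was lower and 3 higher at an unadjusted p under 0.05 (2.90% and 3.70% of all tested probe sets). The means of the 7 were 8.29 to 8.40 on the transgenic arrays, against 8.00 to 8.41 on the wild-type arrays. The part of these lists in the values of the red cell genes was not tested.

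**Figure D5:**
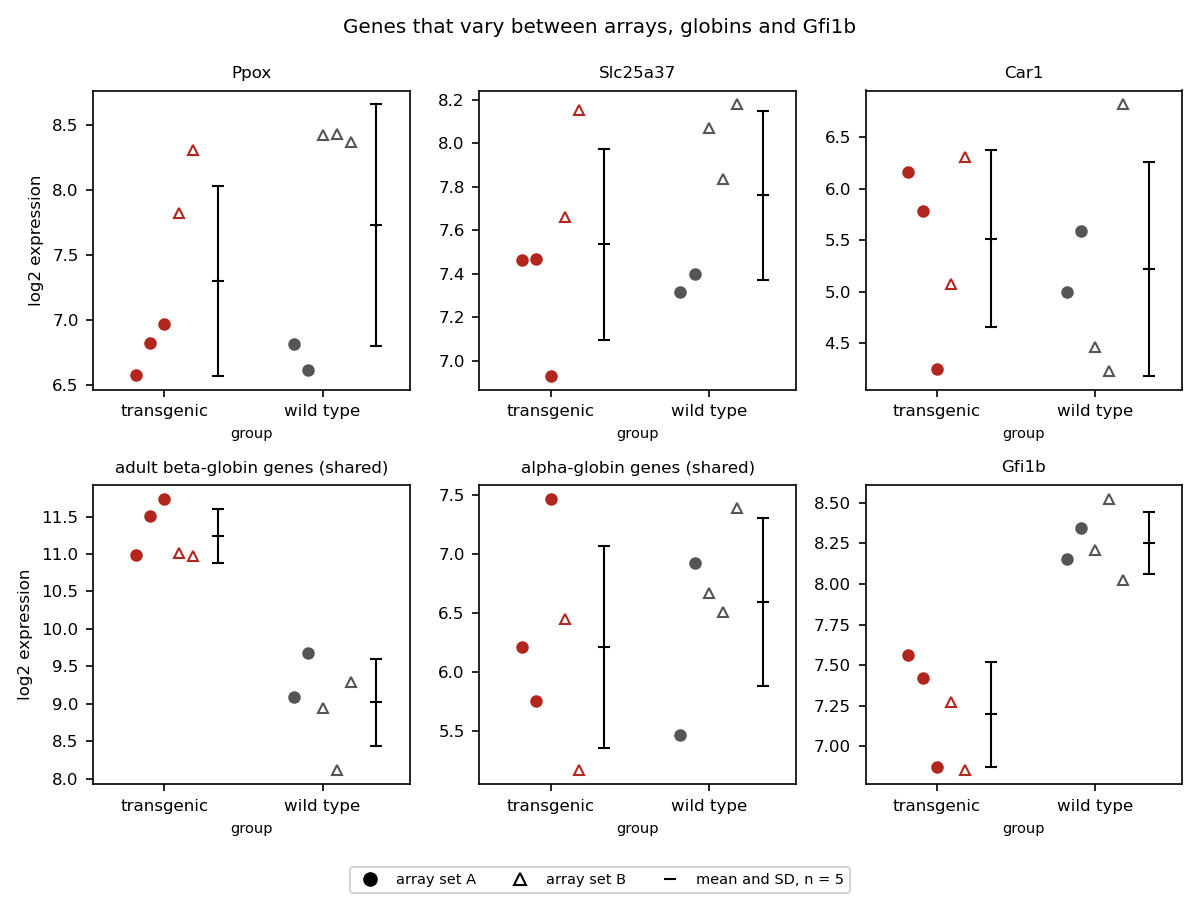
Log2 expression on each array (y axis; each panel has its own range) of Ppox, Slc25a37, Car1, 1 probe set each shared by the adult beta-globin and the alpha-globin genes, and Gfi1b, transgenic left and wild type right. Filled circles are set A, open triangles set B, and bars the mean and SD of 5 arrays; the beta-globin probe set is higher and Gfi1b lower on all transgenic arrays, and Ppox is parted by set.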

How the data were processed

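Expression was measured on 10 arrays, 5 of transgenic and 5 of wild-type HSCs. The authors deposited log2 values made by robust multi-array averaging, and the submitters' processing notes name RMA, affy and limma. Probe sets were named through the platform annotation (21789 with 1 symbol, 1621 with several), and lmFit and eBayes of limma 3.58.1 (R 4.3.3) gave a test for each of the 23410 that had a symbol, and p-values were adjusted over that whole table by Benjamini-Hochberg, with 0.05 as the threshold. The fit held both groups and no covariates and was tested on simulated data. The number of arrays limits the precision. All genes of the list are named. Values on every array are given for those past the threshold, with an unadjusted p under 0.05 or without overlap, and in each subgroup for the highest mean and the largest difference; Rhag, Alas2 and the second Tmod1 probe set were added after their values were seen. Of the further lists, those of membrane, heme and iron, erythroid regulator and stem cell genes name genes past the threshold and up to 4 others with the smallest p. The remaining lists name fewer genes or none, also where unnamed members had a small unadjusted p. Fth1 and Ftl1 were added after their values were seen. The genes and lists were chosen with earlier results of these data known. Alternatives were the array set as a block or each set alone, replicate number as a block, array weights, other scalings, filters, thresholds and probe set rules, and each array left out. Promoters came from RefSeq (GRCm38.p6); genes on chromosome 18 were left out. No source names the build of the array annotation, so gene positions are not printed.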

Additional observations from a re-analysis of the deposited data

Results flagged for a closer look

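In 3 of 62 gene and group combinations checked, 1 array lay far from the other 4 of its group, and chance alone flags about 1 in 20. Ermap read 5.75 on transgenic array 5, against 5.97 to 6.05 on the other transgenic arrays. Uros read 6.10 on transgenic array 5, against 5.46 to 5.61 on the others. Urod read 7.09 on transgenic array 2, against 7.50 to 7.56 on the others. All 3 differences between the groups were under 0.10 in size and did not pass (limma).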

How the results depend on the processing

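No gene of the 30 passed under any setting tried, and the 7 with an unadjusted p under 0.05 kept their sign in all of them; 17 of the 30 kept their sign throughout and 13 did not. Probe sets past the threshold numbered 33 (5 lower, 28 higher). They were 91 (18 lower, 73 higher) with the array set as a block, 4 (0 lower, 4 higher) within set A, 6 (0 lower, 6 higher) within set B, 15 (1 lower, 14 higher) over all probe sets, 8 (1 lower, 7 higher) with a floor at the 20th percentile, 7 (0 lower, 7 higher) at a threshold of 0.01, and 3 lower with a robust trend fit. Genes of the 30 with an unadjusted p under 0.05 (limma) were 3 lower within set A. Within set B they were 5 lower and 1, Rhag, higher. Leaving out 1 array gave 15 to 71 probe sets (1 to 6 lower, 14 to 65 higher), with 6 to 8 of the 30 lower and 0 to 1 higher. The total was 71 without transgenic array 2, 19 and 15 without transgenic arrays 3 and 4, and 20, 18, 16, 17 and 17 without wild-type arrays 1 to 5. The replicate numbers did not pair the samples (correlations of deviations 0.24, 0.35, -0.14, 0.11 and 0.33; 0 of 5 transgenic arrays correlated best with their own number); a replicate block gave 33 probe sets (7 lower, 26 higher), 0 of the 30 past the threshold and 6 lower at an unadjusted p under 0.05. Signs turned with the set block for Gypc (-0.0021), Ermap (-0.0014), Rhd (0.0091) and Uros (0.031); within set B for Gypc (-0.086), Ermap (-0.11), Rhd (0.030), Alas1 (-0.024), Alas2 (0.099), Fech (0.083) and Ireb2 (0.19); within set A for Rhag (-0.050), Ank1 (0.087), Add2 (0.11), Uros (0.11) and Ppox (0.076); after quantile scaling for Rhd (0.011) and Alas2 (0.0011); after median centring for Rhd (0.0070) and Alas2 (0.0074); with array weights for Add2 (0.0034); and with the mean of its probe sets for Tmod1 (-0.28). Leaving out 1 array, differences ranged from -0.071 to 0.11 for Gypc, -0.035 to 0.063 for Ermap, -0.031 to 0.020 for Rhd, -0.055 to 0.036 for Ank1, -0.056 to 0.0068 for Add2, -0.024 to 0.076 for Alas1, -0.086 to 0.11 for Alas2, -0.14 to 0.066 for Uros, -0.13 to 0.026 for Fech and -0.14 to 0.0080 for Ireb2. The cause was not tested.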
